A study of Mus musculus with 6 samples.

Results

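The genes described here are 39 mouse genes of the interferon-gamma programme: the GTPases of the GBP and IRG families, the machinery that presents peptides on MHC molecules, the transcription factors that drive both, and the 2 chains of the interferon-gamma receptor. They were chosen by name and matched on the gene symbol in the deposited count table, where all 39 of 39 were found among 54532 genes. All 39 also passed the filter on low counts, which kept 13706 genes for testing. Liver RNA from mice aged 5 weeks was sequenced in 6 libraries, 3 from control mice (Ctrl) and 3 from mice in which Fam210a was knocked out in hepatocytes alone (Fam210aHKO). FAM210A is a protein of mitochondria. Library names in the labels read LiWT for Ctrl and LiKO for Fam210aHKO. The Cre driver, the control genotype beyond these names, the sex and the strain of the mice were not stated in the labels. The labels do not say that each library is a separate animal, so p-values measure only the spread between these libraries, which may be technical.

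Interferon-gamma binds a receptor of the chains IFNGR1 and IFNGR2, which signal through the kinases JAK1 and JAK2. The response is read from DNA elements called gamma-activated sites (GAS) and, through IRF1, interferon-stimulated response elements (ISRE), and it switches on GTPases that attack the vacuoles of intracellular microbes and the genes that load peptides onto MHC class I. In liver, hepatocytes carry MHC class I, whereas MHC class II belongs mainly to macrophages, dendritic cells, B cells and, at a lower level, sinusoidal endothelium.

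Genotype labels of Fam210aHKO replicates 2 and 3 count the gene number upward from that of replicate 1, while the titles of all 3 read Fam210aHKO, so grouping followed the titles. Fam210a itself measured 119, 136 and 162 CPM in Ctrl and 31.7, 28.6 and 44.2 CPM in Fam210aHKO (here and below in the order of replicates 1 to 3). CPM here is counts per 1e6 of the library total after TMM scaling, a scaling that lines up the bulk of the genes. Fam210a was thus at 25.1% of the Ctrl mean, and the 2 groups did not overlap. Library totals ran from 12.5 to 19.7 M counts (1 M is 1e6), and the mean TMM factor was 0.855 for Ctrl and 1.17 for Fam210aHKO. Scaling by library totals instead moved the median log2 fold change of all genes up by 0.45, so the calls of the 39 genes are also given under library totals. In bulk tissue, fewer cells of a type and less RNA per cell cannot be told apart.

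Stretches of promoter are shown first, because 4 of the IRG GTPase genes hold the letters of both response elements side by side. RefSeq promoters of build GRCm38.p6, each 300 bases long (250 before and 50 after the start of transcription), were found for 28 of the 39 genes. GAS was searched as TTCNNNGAA and ISRE as GAAA, any 2 bases and GAAA again, on both strands and by exact letters. In the sequences below, written 5′ to 3′ on the strand of the gene, capitals mark these matches, and an ISRE on the opposite strand appears as its reverse complement. The first 4 are IRG genes that share 1 arrangement, a GAS, 2 further bases and an ISRE.
Igtp (chr11:58199496-58199546, plus strand): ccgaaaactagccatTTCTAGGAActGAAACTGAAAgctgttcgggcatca
Irgm2 (chr11:58214887-58214937, plus strand): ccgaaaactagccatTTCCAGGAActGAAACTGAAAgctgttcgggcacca
Tgtp1 (chr11:48992299-48992349, minus strand): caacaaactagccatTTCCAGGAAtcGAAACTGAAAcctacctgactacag
Tgtp2 (chr11:49064258-49064308, minus strand): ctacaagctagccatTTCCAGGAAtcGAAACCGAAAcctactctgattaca

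The next set holds an IRG gene with overlapping ISRE matches and no GAS in its window (Irgm1), a GBP gene with a pair of GAS matches and an ISRE (Gbp7), 2 GBP neighbours with an ISRE match alone, of which 1 was called lower (Gbp3, where a pair of ISRE matches overlap) and 1 was not (Gbp2), the transcription factor Irf1 and the proteasome subunit Psmb8 with a GAS, and the MHC class I light chain B2m with an ISRE.
Irgm1 (chr11:48871420-48871465, minus strand): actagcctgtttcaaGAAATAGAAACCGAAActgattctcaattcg
Gbp7 (chr3:142530215-142530307, plus strand): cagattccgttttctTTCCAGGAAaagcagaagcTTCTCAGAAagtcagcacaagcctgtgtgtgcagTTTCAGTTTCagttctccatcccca
Gbp3 (chr3:142559984-142560029, plus strand): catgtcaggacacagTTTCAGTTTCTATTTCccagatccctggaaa
Gbp2 (chr3:142620589-142620628, plus strand): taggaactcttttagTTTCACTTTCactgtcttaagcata
Irf1 (chr11:53769909-53769947, plus strand): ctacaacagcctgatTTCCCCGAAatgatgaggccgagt
Psmb8 (chr17:34198083-34198121, plus strand): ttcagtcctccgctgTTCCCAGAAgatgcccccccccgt
B2m (chr2:122147533-122147572, plus strand): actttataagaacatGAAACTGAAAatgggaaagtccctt

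A GAS match occurred in 9 of the 28 genes (32.1%), namely Gbp5, Gbp7, Igtp, Irgm2, Tgtp1, Tgtp2, Irf1, Irf8 and Psmb8, beside 9.55% of all 27025 genes in the promoter table. An ISRE match occurred in 13 of the 28 (46.4%), beside 3.99% of all genes. Its 13 genes were Gbp2, Gbp3, Gbp5, Gbp7, Irgm1, Irgm2, Igtp, Tgtp1, Tgtp2, B2m, H2-T23, Erap1 and Psme1. Either element was present in 16 of 28 (57.1%), beside 12.9% of all genes. The exact letters TGACGCAA, a form of the core of the X2 box through which MHC promoters are read, matched none of the 28 and 0.562% of all genes. Other forms of that box were not searched, so this does not show that these promoters lack it. A match says only that these letters stand in the window, and Gbp2, whose window holds an ISRE match, was not called (below), while Ifi47, which holds none of these letters in its window, was called lower. Promoters of Gbp4, Gbp6, Gbp8, Gbp9, Gbp10, Iigp1, Tap2, Nlrc5, Ciita, H2-Ab1 and Cd74 were not analysed here.

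Across the 39 genes, 18 were called lower and 1 higher in Fam210aHKO. A call is an adjusted p under 0.05 from the quasi-likelihood test of edgeR, with the Benjamini-Hochberg adjustment run across the 13706 tested genes. Over all tested genes, 13.5% were called lower and 14% higher. Of the 39, 34 had a log2 fold change below 0 (Fam210aHKO minus Ctrl), and the median was -0.58 beside 0.02 over all tested genes. In 20 of the 39 every Fam210aHKO library was below every Ctrl library, and in 1 every one was above, beside 20.7% and 22% of all tested genes. With library totals in place of TMM, 10 of the 39 were called lower and 3 higher, beside 6.33% and 42.7% of all tested genes, and the median was -0.13 beside 0.47. The genes that lost their call there were Gbp3, H2-K1, H2-T23, B2m, Erap1, Psmb8, Nlrc5 and Irf1, each still below 0. With the replicate number as a block, 20 were called lower and 1 higher, beside 18% and 17.8% of all tested genes, the additions being Tgtp2 and Tap1. Under every scaling, filter, tool and left-out library tried, 11 kept their call: Gbp6, Gbp7, Gbp10, Irgm1, Irgm2, Igtp, Iigp1, Tgtp1, Ifi47, Psmb9 and Ifngr1. The shares over all tested genes given here are the background for the counts of every role group and list below.

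**Figure D1:**
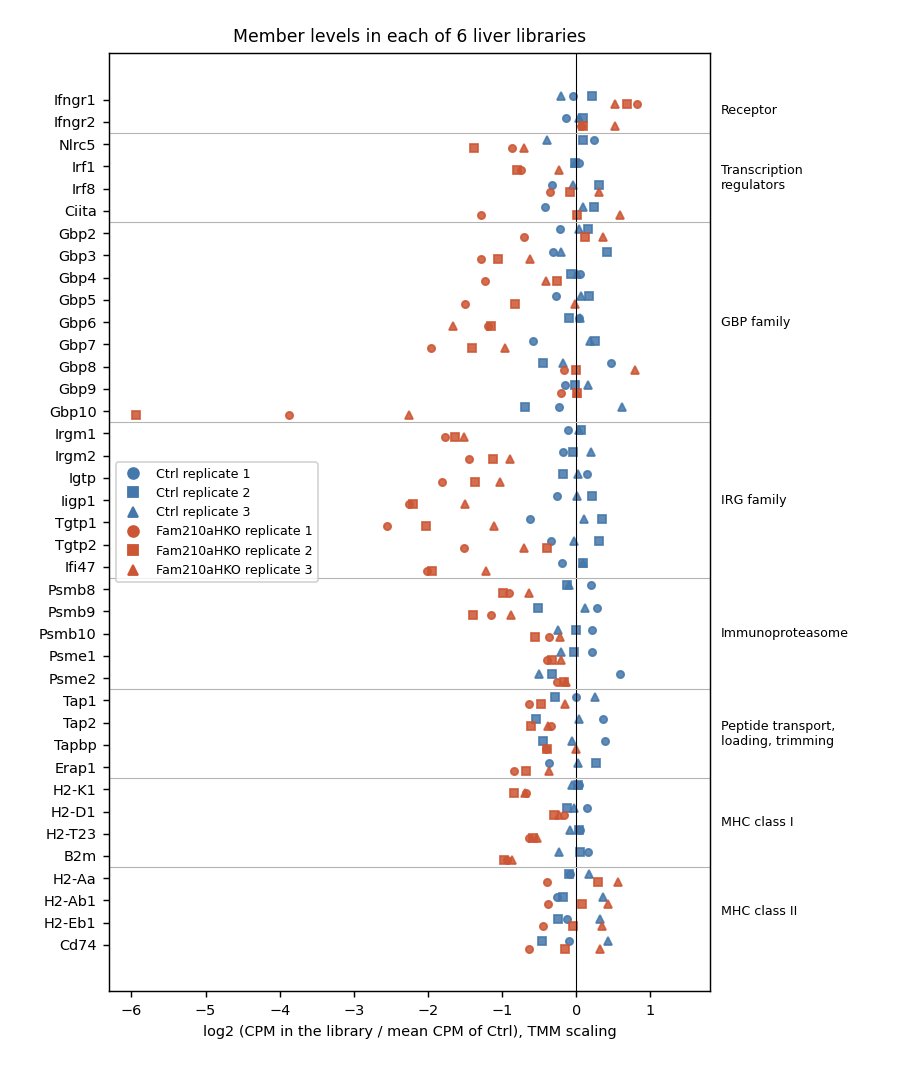
Level of each of the 39 genes in each of the 6 libraries, as the log2 ratio of its CPM (TMM scaling) to the Ctrl mean, grouped by role; blue is Ctrl, red is Fam210aHKO and the symbol gives the replicate. In the IRG family all 7 genes have the 3 red points left of the 3 blue points, in the MHC class II group the colours overlap, and Ifngr1 alone has all red points to the right of all blue ones.

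Fam210aHKO libraries were not equally low. Replicate 1 was the lowest of the 3 for 27 of the 39 genes, and replicate 3 was the highest for 31. The median log2 difference of the 39 genes from the Ctrl mean was -0.74 in replicate 1, -0.55 in replicate 2 and -0.33 in replicate 3. The 3 Ctrl libraries stood at -0.05, -0.01 and 0.04. Reads of the 39 genes made up 0.471 to 0.534% of all counts in Ctrl and 0.376 to 0.425% in Fam210aHKO, without overlap. That share is taken of library totals, and B2m, H2-K1, H2-D1 and Iigp1 held 74.5 to 80.6% of these reads.

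The receptor's ligand-binding chain rose. Ifngr1 (chromosome 10, 19591949-19610229 in mm10) measured 25.3, 30.2 and 22.7 CPM in Ctrl and 45.8, 41.9 and 37.2 CPM in Fam210aHKO. All 3 Fam210aHKO libraries were above all 3 Ctrl libraries, with a log2 fold change of 0.68 (SE 0.16, edgeR adjusted p = 0.00918) or 160% of the Ctrl mean. Ifngr2, the other chain, measured 22.6, 26.6 and 25.5 CPM in Ctrl and 26.1, 26.6 and 35.7 CPM in Fam210aHKO. Its groups overlapped and it was not called (0.24, SE 0.17, edgeR adjusted p = 0.317). Under library totals both chains were called higher, Ifngr1 at 1.14 and Ifngr2 at 0.70, as were 42.7% of all tested genes. Ifngr1 gave 1.05 ± 0.14 counts per Ifngr2 count in Ctrl and 1.46 ± 0.37 in Fam210aHKO (SD, n = 3 and 3), and these ratios overlapped (two-sided exact permutation p = 0.3, Benjamini-Hochberg adjusted 0.338 over 9 ratios).

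Other genes of the signalling pathway were read beside the receptor. Ifng, the ligand, had 0 counts in all 6 libraries, which allows up to 3 counts a library or 0.132 to 0.261 CPM. Jak1 ran from 117 to 155 CPM over the 6 libraries and Jak2 from 17.5 to 24.3, and neither was called. Under library totals both were called higher (0.64 and 0.68, edgeR adjusted p = 0.00705 and 0.00706), as were 42.7% of all tested genes. Irf9, a DNA-binding factor of the type I response, fell by 1.18 and Irf2, a competitor of IRF1, fell by 1.06 on the log2 scale (edgeR adjusted p = 0.000132 and 0.00313), and both kept their calls under library totals. Socs1, the feedback inhibitor, was under the filter with 1, 0 and 5 counts in Ctrl and 8, 2 and 7 in Fam210aHKO.

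Among the 4 transcription regulators, Nlrc5 and Irf1 were called lower and Irf8 and Ciita were not called. NLRC5, the transactivator of MHC class I promoters, had RNA levels of 29.2, 26.4 and 18.8 CPM in Ctrl and 13.5, 9.49 and 15.2 CPM in Fam210aHKO. The groups did not overlap, and Nlrc5 stood at 51.6% of the Ctrl mean (log2 fold change -0.95, SE 0.22, edgeR adjusted p = 0.00836). Irf1 measured 18.3, 17.5 and 17.6 CPM in Ctrl and 10.6, 10.3 and 15.1 CPM in Fam210aHKO, where replicate 3 lay nearest to Ctrl. Its call was narrow, with a log2 fold change of -0.57 (SE 0.19, edgeR adjusted p = 0.0443). Leaving out any library except Fam210aHKO replicate 3 ended the call of Irf1, with edgeR adjusted p of 0.0969, 0.0673 and 0.0882 without Ctrl replicates 1, 2 and 3 and 0.124 and 0.164 without Fam210aHKO replicates 1 and 2. Upper-quartile scaling (0.0572) and no filter (0.0786) ended it as well. Under library totals neither kept its call (-0.50 for Nlrc5 and -0.12 for Irf1).

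Irf8 and Ciita are read mainly in cells of the immune system. Irf8, a factor of macrophage and dendritic cell lineages, measured 6.43, 9.90 and 7.80 CPM in Ctrl and 6.27, 7.57 and 9.96 CPM in Fam210aHKO, with the ranges nearly the same (log2 fold change -0.02, SE 0.24). Ciita, the transactivator of MHC class II, was the lowest of the 39 per length, at 1.13, 1.79 and 1.61 CPM in Ctrl and 0.622, 1.51 and 2.28 CPM in Fam210aHKO. Its spread in Fam210aHKO covered the whole Ctrl range, with a log2 fold change of -0.04 (SE 0.44). Both turn above 0 under library totals (0.44 and 0.42), without a call.

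Most IRG GTPases fell, under both scalings. Of 7 genes, 6 were called lower, all 7 had no overlap between the groups, and the median log2 fold change was -1.63. Under library totals the same 6 were called and the median was -1.18. The family counts regulators that guard the cell's own membranes (Irgm1, Irgm2, Igtp) and effectors that load onto microbial vacuoles (Iigp1, Tgtp1, Tgtp2, Ifi47). Of this family 6 genes lie on chromosome 11 and Iigp1 on chromosome 18. Fam210a itself lies on chromosome 18 as well (68260187-68300333 in mm10). The part of this shared chromosome in the level of Iigp1 was not tested.

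Irgm1 (chromosome 11, 48861968-48871683 in mm10) measured 75.1, 84.995 and 83.2 CPM in Ctrl and 23.8, 26.2 and 28.5 CPM in Fam210aHKO. It had the smallest p of the 39, at a log2 fold change of -1.63 (SE 0.14, edgeR adjusted p = 2.2e-05). Irgm2 measured 67.0, 74.0 and 87.3 CPM in Ctrl and 27.8, 34.9 and 40.9 CPM in Fam210aHKO, which is 45.4% of the Ctrl mean (-1.14, SE 0.17, edgeR adjusted p = 0.000778). Igtp, whose gene overlaps Irgm2 by 7974 bases on the same strand, fell from 52.7, 42.2 and 48.3 CPM to 13.6, 18.5 and 23.4 CPM (-1.37, SE 0.20, edgeR adjusted p = 0.000585). Of the stretches of 50 bases in Igtp transcripts, 11.8% also occur in another gene, chiefly Irgm2. The regulators thus all fell to between 32.3 and 45.4% of Ctrl.

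Iigp1 (chromosome 18, 60376029-60392627 in mm10) was by far the most abundant GTPase and the one that fell furthest in the family. It measured 492, 684 and 593 CPM in Ctrl and 123, 128 and 209 CPM in Fam210aHKO. Its highest Fam210aHKO library was below its lowest Ctrl library, and the mean was 26.0% of Ctrl (log2 fold change -1.94, SE 0.23, edgeR adjusted p = 0.000146). Ifi47 fell from 23.8, 29.2 and 29.0 CPM to 6.75, 7.09 and 11.8 CPM, or 31.3% of Ctrl (-1.68, SE 0.23, edgeR adjusted p = 0.00035). In both effectors, Fam210aHKO replicate 3 was the least reduced library.

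Tgtp1 and Tgtp2 are near-identical neighbours. Of the stretches of 50 bases in their transcripts, 81.2% and 86.6% occur in another gene, mostly in each other, and the labels do not state how reads that fit both were counted. Tgtp1 measured 3.9999, 7.87 and 6.65 CPM in Ctrl and 1.05, 1.51 and 2.85 CPM in Fam210aHKO and was called lower (-1.76, SE 0.38, edgeR adjusted p = 0.00541). Tgtp2 measured 2.70, 4.22 and 3.36 CPM in Ctrl and 1.196, 2.61 and 2.11 CPM in Fam210aHKO and was not called (-0.81, SE 0.33, edgeR adjusted p = 0.0885), although it was called with the replicate block (edgeR adjusted p = 0.033). The split between the pair is therefore uncertain. Summed as 1 gene they measured 6.70, 12.1 and 10.02 CPM in Ctrl and 2.25, 4.13 and 4.96 CPM in Fam210aHKO, with a log2 fold change of -1.35 (SE 0.31, edgeR adjusted p = 0.00824).

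GBP genes split within the family. Of 9, 4 were called lower (Gbp3, Gbp6, Gbp7, Gbp10) and 0 higher, 8 had a log2 fold change below 0, and the median was -0.64. Under library totals the median was -0.19, 3 were called lower, and Gbp2 and Gbp9 joined Gbp8 above 0. Neither DESeq2 nor limma-voom called a GBP gene higher, and 0 of 9 were higher at an unadjusted p under 0.05. They lie in a cluster on chromosome 3 (Gbp2, Gbp3, Gbp5, Gbp7) and a cluster on chromosome 5 (Gbp4, Gbp6, Gbp8, Gbp9, Gbp10).

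On chromosome 3, Gbp7 measured 13.0, 23.3 and 22.2 CPM in Ctrl and 5.02, 7.36 and 10.05 CPM in Fam210aHKO. The groups did not overlap, and it fell to 38.4% of Ctrl (log2 fold change -1.38, SE 0.28, edgeR adjusted p = 0.00432). Gbp3 fell from 8.61, 14.3 and 9.28 CPM to 4.40, 5.16 and 6.93 CPM (-0.96, SE 0.25, edgeR adjusted p = 0.0164). That call of Gbp3 ended without Ctrl replicate 2 (edgeR adjusted p = 0.0594), without Fam210aHKO replicate 2 (0.0533) and under library totals (-0.49). Gbp2, in the same cluster, measured 4.96, 6.41 and 5.92 CPM in Ctrl and 3.54, 6.26 and 7.37 CPM in Fam210aHKO, with wide overlap (-0.01, SE 0.28). Gbp5, which helps assemble inflammasomes, was below 3 CPM in every library and was not called (-0.64, SE 0.38), except without Fam210aHKO replicate 3 (-1.15, edgeR adjusted p = 0.041). Summed with Gbp2b, a neighbour that is not among the 39, the cluster fell by 0.96 on the log2 scale (SE 0.25, edgeR adjusted p = 0.0152), a call that ended under library totals (-0.50).

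On chromosome 5, Gbp10 had the steepest change of the 39 and, in Fam210aHKO, the fewest reads. It had 41, 32 and 96 counts in Ctrl and 6, 1 and 20 counts in Fam210aHKO, or 3.57, 2.60 and 6.45 CPM against 0.287, 0.0688 and 0.877 CPM. The log2 fold change was -3.23 (SE 0.56, edgeR adjusted p = 0.00175), and it ran from -4.39 without Fam210aHKO replicate 3 to -2.79 without Ctrl replicate 3, called each time. Gbp6 fell from 4.70, 4.30 and 4.77 CPM to 2.01, 2.06 and 1.45 CPM, with tight groups that did not overlap (-1.32, SE 0.25, edgeR adjusted p = 0.00274). Both share sequence with other genes, since 84.1% of the stretches of 50 bases of Gbp10 and 70.7% of those of Gbp6 occur elsewhere, chiefly in Gm43302 or each other. Gm43302, an annotated gene with 3 counts over all libraries, overlaps Gbp6 by 22994 bases and Gbp10 by 23835 bases on the same strand. The labels do not state how reads that fit several of these genes were counted, so the split between them is uncertain. Gbp4, Gbp8 and Gbp9, which overlap one another on the chromosome, were not called, with log2 fold changes of -0.58, 0.30 and -0.06. Of these Gbp4 alone had no overlap between the groups, and Gbp8, at 1.06 to 2.50 CPM, was the only GBP gene above 0. Summed with Gbp11 the cluster measured 26.5, 25.4 and 29.3 CPM in Ctrl and 12.4, 17.7 and 17.4 CPM in Fam210aHKO (-0.77, SE 0.18, edgeR adjusted p = 0.00779), a call that ended under library totals (-0.33).

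**Figure D2:**
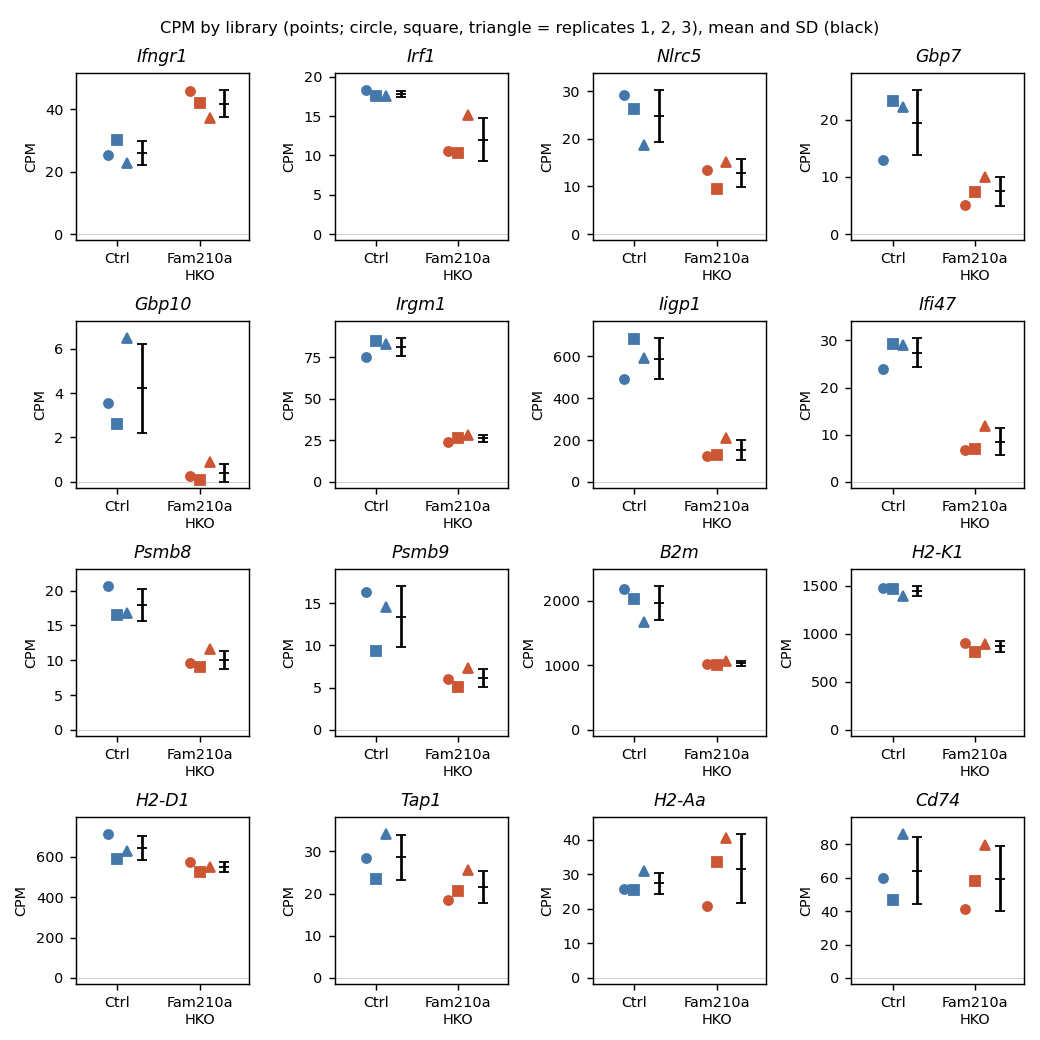
CPM (TMM scaling, axis from 0) of 16 of the 39 genes in each library, with mean and SD in black (n = 3 a group); circles, squares and triangles are replicates 1, 2 and 3. Ifngr1 is the panel where Fam210aHKO is higher without overlap, from Irf1 to H2-D1 the Fam210aHKO points are all below the Ctrl points, and in Tap1, H2-Aa and Cd74 the groups overlap.

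Of the 5 immunoproteasome genes, Psmb8 and Psmb9 were called lower, all 5 were below 0, and the median was -0.38. Under library totals Psmb9 alone stayed called, the median was 0.08, and Psmb10, Psme1 and Psme2 were above 0. Psmb8, the chymotrypsin-like subunit that replaces Psmb5, measured 20.6, 16.5 and 16.8 CPM in Ctrl and 9.57, 9.01 and 11.6 CPM in Fam210aHKO, with no overlap (-0.83, SE 0.18, edgeR adjusted p = 0.00558). Psmb9, which replaces Psmb6, fell from 16.3, 9.34 and 14.5 CPM to 6.03, 5.09 and 7.28 CPM (-1.12, SE 0.24, edgeR adjusted p = 0.00542). Tap1 overlaps Psmb9 by 212 bases on the opposite strand, and the labels do not state the strand setting of the counting. Psmb10, which replaces Psmb7, and the activator subunits Psme1 and Psme2 had log2 fold changes of -0.38, -0.31 and -0.19 with overlapping groups.

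Standard catalytic subunits were not called. Immunoproteasome subunits were also set against them as a ratio within each library, which needs no scaling factor. Psmb5 ran from 70.0 to 94.6 CPM in Ctrl and from 57.0 to 101 CPM in Fam210aHKO. Per length, Psmb8 made up 6.68, 6.45 and 7.31% of Psmb8 plus Psmb5 in Ctrl and 3.02, 3.53 and 6.26% in Fam210aHKO. That share had no overlap, but its two-sided exact permutation p of 0.1 is the smallest that 3 against 3 can give (Benjamini-Hochberg adjusted 0.18 over 9 ratios chosen after their values were seen). Psmb9 made up 6.21 ± 1.78% of Psmb9 plus Psmb6 in Ctrl and 3.34 ± 1.06% in Fam210aHKO (SD, n = 3 and 3), with overlap (exact permutation p = 0.2, adjusted 0.257). The share of Psmb10 overlapped as well, at 28.2 ± 2.82% and 26.1 ± 4.18%. Of the list of 5 standard subunits and alternative activators, 1 was called higher, the nuclear activator Psme3 (log2 fold change 0.47, SE 0.15, edgeR adjusted p = 0.0368), and 0 lower, with 0 lower also by DESeq2 and limma-voom and 1 (Psme4) at an unadjusted p under 0.05. Psme3 kept its call under library totals.

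Peptide transport, loading and trimming held 1 call. Of 4 genes, Erap1 was called lower. Erap1, the aminopeptidase that trims peptides in the endoplasmic reticulum, measured 105, 163 and 138 CPM in Ctrl and 75.1, 84.3 and 105 CPM in Fam210aHKO. Its lowest Ctrl and highest Fam210aHKO libraries overlapped, and the call was narrow (log2 fold change -0.62, SE 0.19, edgeR adjusted p = 0.0313). Without Ctrl replicate 2 or 3 the adjusted p of Erap1 in edgeR was 0.0906 and 0.0735, without Fam210aHKO replicate 1 or 2 it was 0.0956 and 0.0962, and under library totals the fold change was -0.16 without a call. Tap1, a chain of the peptide transporter, measured 28.4, 23.4 and 34.0 CPM in Ctrl and 18.4, 20.6 and 25.6 CPM in Fam210aHKO, with overlap (-0.41, SE 0.19, edgeR adjusted p = 0.131), and was called with the replicate block (edgeR adjusted p = 0.0416). Tap2, its partner chain (-0.44), and Tapbp, which bridges the transporter to MHC class I (-0.26), were not called. Tap2 was called without Ctrl replicate 2 (-0.66, edgeR adjusted p = 0.035). Tap1, Tap2 and Tapbp were above 0 under library totals, at 0.035, 0.0037 and 0.18.

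MHC class I molecules were among the most abundant of the 39 genes per length, and 3 of 4 were called lower. B2m, the light chain shared by all class I molecules, had the highest level, with a mean of 2277 in Ctrl and 1200.1 in Fam210aHKO on the scale of counts per kilobase and 1e6 counts. In CPM it measured 2178, 2025 and 1671 in Ctrl and 1026, 998 and 1072 in Fam210aHKO. The 3 Fam210aHKO libraries were close together and all below Ctrl, at 52.7% of the Ctrl mean (log2 fold change -0.92, SE 0.20, edgeR adjusted p = 0.00541). H2-K1, a classical heavy chain, fell from 1481, 1463 and 1390 CPM to 906, 807 and 897 CPM (-0.73, SE 0.18, edgeR adjusted p = 0.0103), and lost its call without Fam210aHKO replicate 2 (edgeR adjusted p = 0.0551). H2-T23, a non-classical chain read by receptors of natural killer cells, fell from 262, 260 and 238 CPM to 163, 168 and 176 CPM (-0.58, SE 0.13, edgeR adjusted p = 0.00809).

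H2-D1, the other classical heavy chain, measured 710, 589 and 629 CPM in Ctrl and 573, 523 and 549 CPM in Fam210aHKO. It was lower in all 3 Fam210aHKO libraries, but not called (log2 fold change -0.23, SE 0.16, edgeR adjusted p = 0.314). H2-K1 gave 2.09, 2.48 and 2.21 counts per H2-D1 count in Ctrl and 1.58, 1.54 and 1.64 in Fam210aHKO, a ratio without overlap that needs no scaling factor (two-sided exact permutation p = 0.1, the smallest possible, adjusted 0.18). The heavy chains share some sequence, with 9.63% of the stretches of 50 bases of H2-K1 and 12.8% of those of H2-D1 found in another gene. Their sum fell short of a call (-0.56, SE 0.19, edgeR adjusted p = 0.0537), though it was called by DESeq2 (adjusted p = 0.000984) and limma-voom (adjusted p = 0.0276) and in edgeR with the replicate block (adjusted p = 0.0225). Under library totals 0 of the 4 class I genes were called in edgeR, with B2m at -0.47, H2-K1 at -0.28 and H2-T23 at -0.13, and H2-D1 turned to 0.22.

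Other class I and loading genes, a list of 17 outside the 39, held 6 called lower and 1 higher, beside 13.5% and 14% of all tested genes, with a median of -0.38. Under library totals 1 was called lower (Cd1d1) and 1 higher (H2-Q1), beside 6.33% and 42.7%, with a median of 0.08. H2-Q10, the secreted class I chain of hepatocytes, fell from 1446, 1353 and 1454 CPM to 663, 787 and 925 CPM (log2 fold change -0.84, SE 0.19, edgeR adjusted p = 0.00773). Cd1d1, which presents lipids, fell by 1.26 and H2-T22 by 0.76 on the log2 scale (edgeR adjusted p = 0.000182 and 0.00238). H2-Q1 rose, from 10.9, 7.23 and 5.18 CPM to 19.7, 15.8 and 16.8 CPM (1.17, SE 0.25, edgeR adjusted p = 0.00541), and lies in a cluster of like genes with which reads may be shared.

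MHC class II genes were not called. In edgeR 0 of 4 were called in either direction, with 0 at an unadjusted p under 0.05 and 0 by DESeq2 or limma-voom, and the median log2 fold change was 0.03. H2-Aa, the alpha chain of the I-A molecule, measured 25.7, 25.6 and 30.9 CPM in Ctrl and 20.8, 33.5 and 40.4 CPM in Fam210aHKO, where replicate 1 was the lowest of all 6 libraries and replicate 3 the highest. H2-Ab1, its beta chain, and H2-Eb1, the beta chain of I-E, had the same order in Fam210aHKO, at 16.0, 22.1 and 28.2 CPM and at 16.1, 21.4 and 28.1 CPM. Cd74, the invariant chain that guides class II to the endosome, measured 59.8, 46.4 and 85.9 CPM in Ctrl and 41.0, 57.8 and 79.6 CPM in Fam210aHKO. Log2 fold changes were 0.20 for H2-Aa (SE 0.22), 0.08 for H2-Ab1 (SE 0.23), -0.02 for H2-Eb1 (SE 0.22) and -0.11 for Cd74 (SE 0.26). Under library totals all 4 were above 0 and H2-Aa was called higher (0.65, edgeR adjusted p = 0.0328). With that scaling the median over all tested genes was 0.47, and 42.7% of them were called higher.

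Set against class II within each library, the summed IRG GTPases differed without overlap. IRG counts were 5.81, 8.49 and 4.97 per class II count in Ctrl and 2.10, 1.63 and 1.804 in Fam210aHKO, without overlap (two-sided exact permutation p = 0.1, the smallest possible, adjusted 0.18). Most of the IRG sum is Iigp1, at 492, 684 and 593 of 717, 927 and 851 CPM in Ctrl and 123, 128 and 209 of 197, 219 and 318 CPM in Fam210aHKO. Cd74 is the largest part of the class II sum. Class I counts were 37.5, 39.8 and 22.95 per class II count in Ctrl and 28.4, 18.5 and 15.3 in Fam210aHKO, with overlap (exact permutation p = 0.2, adjusted 0.257). Iigp1 gave 22.6, 33.8 and 35.5 counts per 100 B2m counts in Ctrl and 11.999, 12.8 and 19.5 in Fam210aHKO, without overlap (exact permutation p = 0.1, adjusted 0.18). Of 13 tested genes in the list of other class II and processing genes, 2 were called lower and 0 higher, beside 13.5% and 14% of all tested genes. The 2 were Rfxank and Nfyb, subunits of factors that bind MHC promoters (log2 fold changes -0.73 and -0.48, edgeR adjusted p = 0.0312 and 0.0327). At an unadjusted p under 0.05, 1 was higher, and 0 were called higher by DESeq2 or limma-voom. Under library totals 6 were called higher and 0 lower, beside 42.7% and 6.33% of all tested genes.

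**Figure D3:**
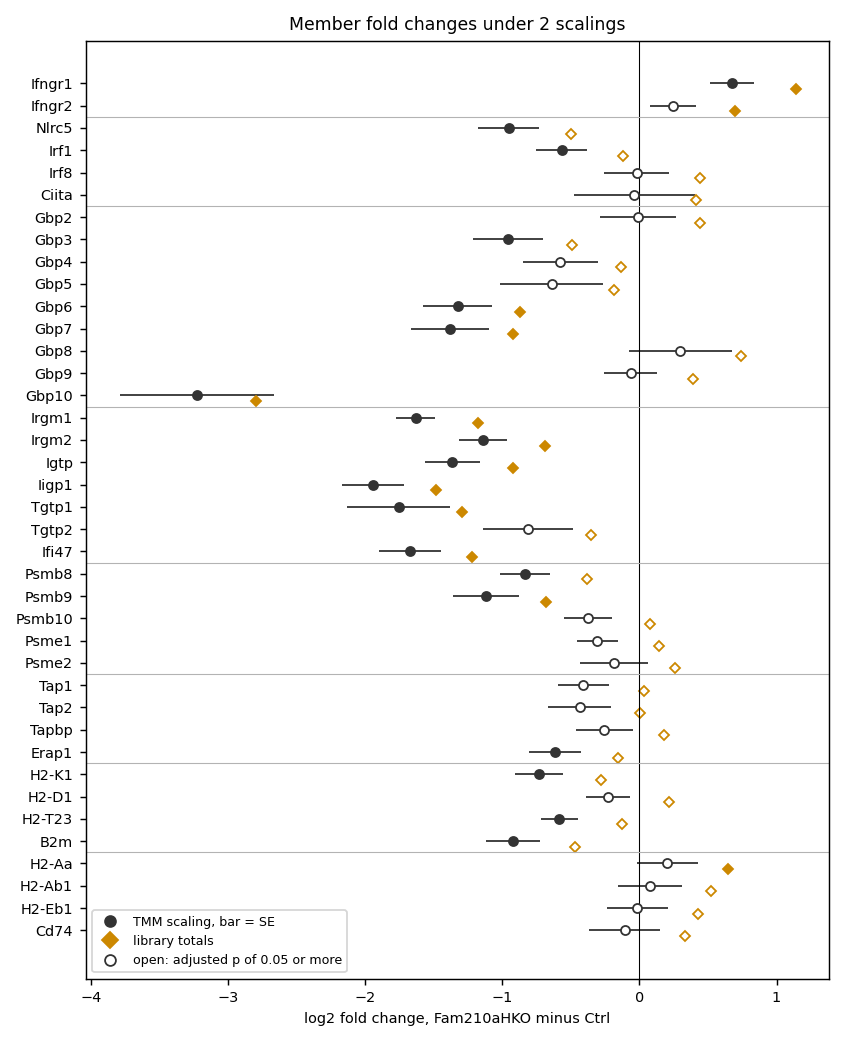
Log2 fold change (Fam210aHKO minus Ctrl) of each of the 39 genes with TMM scaling (circles, bars are SE) and with library totals (diamonds), filled where the edgeR adjusted p is under 0.05. Library totals shift every gene to the right, which leaves 6 IRG genes, Gbp6, Gbp7, Gbp10 and Psmb9 called lower, turns 13 uncalled genes from below to above 0 and adds Ifngr2 and H2-Aa to Ifngr1 as called higher.

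Level per length set the order of the 39 genes in Ctrl: after B2m came H2-K1 (554), H2-D1 (249.3), Iigp1 (189), H2-T23 (87.7) and Cd74 (45.4), in counts per kilobase and 1e6 counts. All GBP genes were below 4 on that scale, led by Gbp7 (3.47) and Gbp3 (3.28), and Ciita was last (0.158). In Fam210aHKO, Iigp1 stood at 49.1, next to H2-T23 at 58.5 and Cd74 at 42.2. Gene levels per length rest on the gene length in the deposited table.

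Further interferon-gamma targets outside the 39 were taken from a list of 20, of which 18 passed the filter (Ciita is in both lists, and Ido1 had 0 counts in all 6 libraries). In edgeR 7 of the 18 were called lower and 0 higher, beside 13.5% and 14% of all tested genes, with a median of -0.72. By DESeq2, by limma-voom or at an unadjusted p under 0.05, 0 were higher. Under library totals 4 were called lower, beside 6.33% of all tested genes. Gm4951, a relative of Iigp1, fell from 129, 132 and 149 CPM to 27.9, 24.2 and 41.0 CPM, a log2 fold change of -2.14 (SE 0.20, edgeR adjusted p = 3.32e-05). Its relatives F830016B08Rik and Gm4841 fell by 2.15 and 2.77 on the log2 scale (edgeR adjusted p = 0.00321 and 0.00352). Gm4951, F830016B08Rik and Gm4841 lie on chromosome 18, as do Iigp1 and Fam210a. Of the chemokine genes in that list, Cxcl9 and Cxcl10 were not called, with log2 fold changes of -0.71 and -0.97. Cxcl11 was called lower (-1.72, SE 0.46, edgeR adjusted p = 0.0171), on 15, 14 and 13 counts in Ctrl and 4, 6 and 9 in Fam210aHKO. It kept its call under library totals (-1.27, edgeR adjusted p = 0.0412).

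Genes named for the type I interferon response were read from a list of 27. Of 27, 19 were called lower and 0 higher, beside 13.5% and 14% of all tested genes, with a median of -0.88. By DESeq2, by limma-voom or at an unadjusted p under 0.05, 0 were higher. Under library totals 12 were called lower, beside 6.33% of all tested genes, with a median of -0.42. Ifit1 fell by 2.95, Ifit3 by 2.01 and Rtp4 by 1.46 on the log2 scale (edgeR adjusted p = 7.21e-06, 4.76e-05 and 9.82e-05). The lists were not tested against each other.

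**Figure D4:**
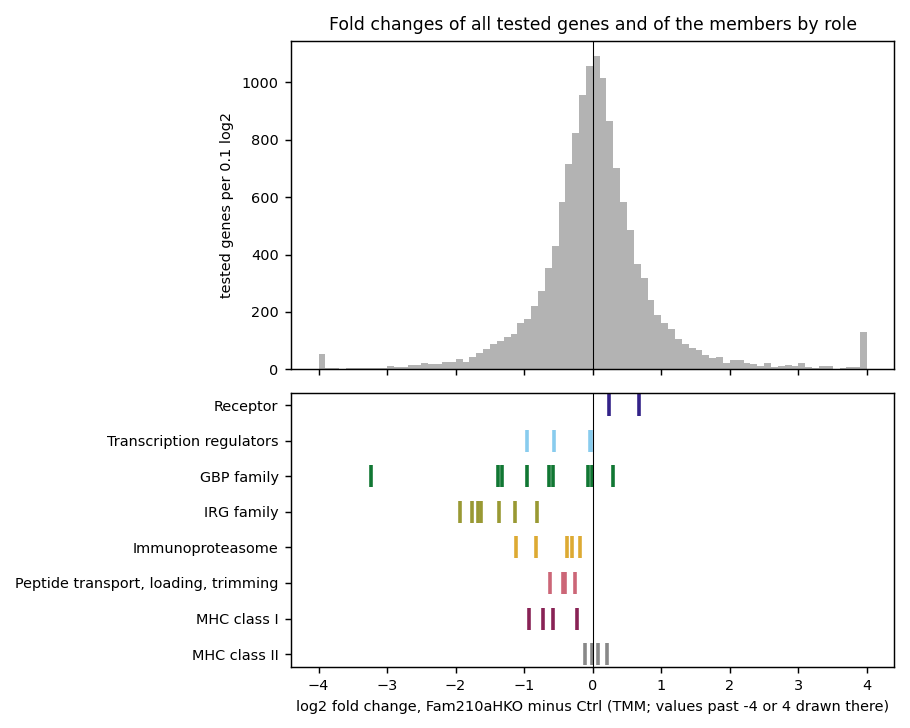
Log2 fold change of all 13706 tested genes (TMM scaling, upper panel, in bins of 0.1, with values beyond the axis drawn at its ends) and of the 39 genes by role (lower panel, 1 tick a gene). The IRG ticks lie between -1.94 and -0.81, the MHC class II ticks lie around 0, and the receptor ticks are at 0.24 and 0.68. Library totals would shift every tick to the right, past 0 for 13 of the uncalled genes.

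Markers of the cell types in liver were read beside these results. Over all tested genes 13.5% were called lower and 14% higher, and under library totals 6.33% and 42.7%. Of the hepatocyte markers, 6 of 9 were called lower and 0 higher (9 lower by DESeq2, 8 by limma-voom and 5 under library totals), and their summed level was 165331 to 247688 CPM in Ctrl and 90450.5 to 114985 CPM in Fam210aHKO, without overlap. That sum is mostly Alb, which was not called (log2 fold change -0.88, SE 0.79), as was Apob (-0.91), while Serpina1a and Apoa1 fell by 1.56 and 1.61 on the log2 scale (edgeR adjusted p = 0.000452 and 0.00323). The summed class I and IRG levels were also without overlap, at 3928 to 4632 and 717 to 927 CPM in Ctrl and 2497 to 2693 and 197 to 318 CPM in Fam210aHKO. The part of the hepatocyte markers in the lower class I, IRG and GBP levels was not tested.

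Macrophage markers differed by kind. Of 9 tested genes listed as markers of recruited macrophages, 4 were called higher (Trem2, Gpnmb, Spp1 and Cd9) and 0 lower. Over all tested genes 14% were called higher and 13.5% lower. Ccr2, Ly6c2, Chil3 and Cx3cr1 were not called, and Itgam was under the filter. The summed level of the 9 was 120 to 135 CPM in Ctrl and 260 to 406 CPM in Fam210aHKO. Spp1 was the largest part of that sum in Fam210aHKO, with a mean of 42.4 CPM in Ctrl and 200 CPM in Fam210aHKO. Bulk counts do not show which cells hold Spp1 or Cd9, so the sum is not a measure of recruited macrophages. Gpnmb went from 0, 0.568 and 0.471 CPM to 15.9, 22.01 and 22.2 CPM (log2 fold change 5.78, edgeR adjusted p = 1.5e-05) and Spp1 from 49.7, 44.8 and 32.7 CPM to 217, 127 and 256 CPM (2.24, edgeR adjusted p = 0.000116), while Lyz2 was not called (0.13). Of 11 markers of Kupffer cells, the resident macrophages, 1 was called higher (Marco, 1.26, edgeR adjusted p = 0.00332) and 0 lower, with Clec4f at -0.17 and Cd5l at 0.17, and the summed level overlapped (533 to 714 and 453 to 827 CPM). The summed class II level overlapped in the same way, at 109 to 171 CPM in Ctrl and 94.0 to 176 CPM in Fam210aHKO. Fam210aHKO replicate 1 was the lowest of its group and replicate 3 the highest in the class II sum and in 11 of all 16 sums of role groups and marker lists, the IRG, GBP and hepatocyte sums included. Under library totals 6 of the 11 Kupffer markers and 7 of the 9 markers of recruited macrophages were called higher, Cd5l and Lyz2 among them. That scaling called 42.7% of all tested genes higher. The part of these markers in the class II levels was not tested.

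Lymphoid and dendritic markers were near the floor. Of 15 T and natural killer cell markers 5 passed the filter, led by Cd4 and Gzma, with 0 called in either direction by edgeR, DESeq2 or limma-voom and 2 lower at an unadjusted p under 0.05. Their summed level was 5.196 to 5.58 CPM in Ctrl and 3.03 to 4.47 CPM in Fam210aHKO, lower without overlap. Eomes had 0 counts in all 3 Ctrl libraries and 4, 3 and 0 counts in Fam210aHKO. Of 9 B cell markers 6 passed, led by Ighm and Cd79b, and 0 were called by edgeR, DESeq2 or limma-voom or reached an unadjusted p under 0.05 (7.31 to 11.8 and 6.17 to 12.2 CPM summed). Of 10 dendritic cell markers 7 passed, led by Zbtb46 and Clec9a, and 1 was called higher (Cd209a, 1.84, edgeR adjusted p = 0.0236; 0 by DESeq2, and 2 under library totals), with summed levels of 12.3 to 14.5 and 9.85 to 16.7 CPM. Sinusoidal endothelial markers had 2 of 9 called lower, Stab2 (-0.77) and Clec4g (-0.49), beside 13.5% of all tested genes. Their summed levels overlapped at 401 to 521 and 267 to 430 CPM, and Kdr was not called. Under library totals 0 of these 9 were called, with Stab2 at -0.32 (edgeR adjusted p = 0.293) and Clec4g at -0.03 (0.881). Among 4 markers of all leukocytes, Coro1a was called higher (0.76) and Laptm5 and Ptprc were not, with summed levels of 40.9 to 45.8 and 42.0 to 67.2 CPM. Under library totals 3 of the 4 were called higher. Over all tested genes 14% were called higher, and 42.7% under library totals. Their part in the levels of the 39 genes was not tested.

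**Figure D5:**
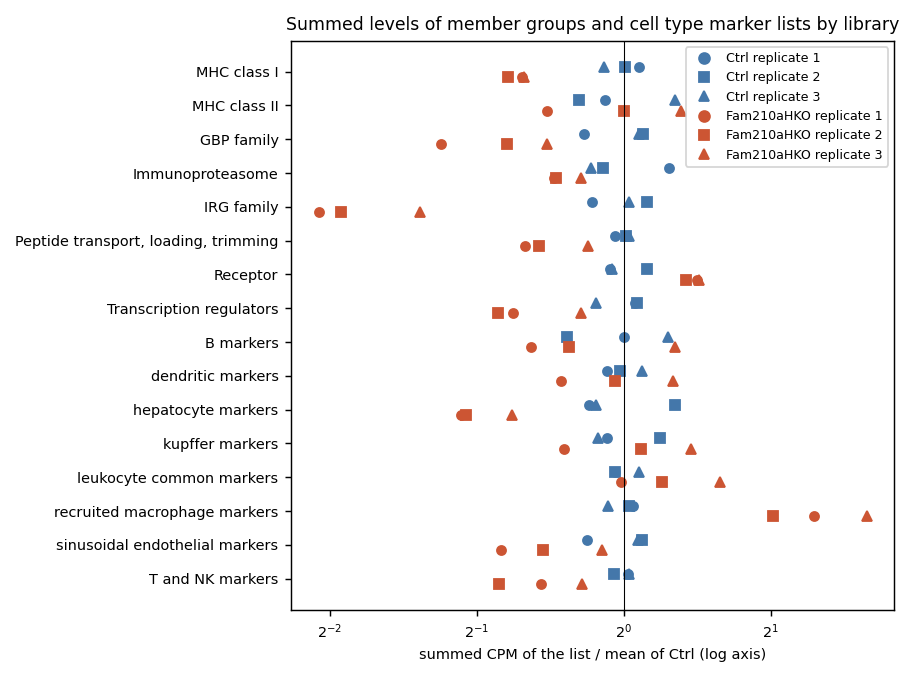
Summed CPM (TMM scaling) of the 8 role groups of the 39 genes and of 8 cell type marker lists, each divided by its Ctrl mean, on a log axis; blue is Ctrl, red is Fam210aHKO and the symbol gives the replicate. The IRG sum, mostly Iigp1, is lowest in Fam210aHKO. The hepatocyte sum and the T and NK sum (5 genes near the floor) are lower without overlap. The sum of the recruited macrophage list, with Spp1 its largest part in Fam210aHKO, is higher without overlap. The class II, Kupffer, dendritic and B cell sums overlap. Fam210aHKO replicate 1 is the lowest of its group and replicate 3 the highest in 11 of the 16 sums. With library totals all red points would move to the right relative to the blue ones, and overlap was not read under that scaling.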

How the data were processed

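Liver mRNA, enriched on poly-T beads per the labels' protocols, was sequenced in 3 Ctrl and 3 Fam210aHKO libraries. The authors deposited whole-number counts per Ensembl gene, 1 column a library, without normalization. They also deposited FPKM values per kilobase of gene length and per 1e6 of a size that, worked out from the values, was 55.4 to 60.1% of the count total in Ctrl and 81.6 to 86.3% in Fam210aHKO. The labels do not state how the authors set that size, and FPKM values served only as an alternative. Per the submitters' processing notes the tools were STAR, featureCounts, Trimmomatic, FastQC and DESeq2 and the build mm10, without versions. Neither the strand setting nor the handling of reads that map to several genes is stated in the labels.

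Counts were filtered with filterByExpr (minimum count 10), scaled by TMM and tested in edgeR 4.0.16 (R 4.3.3) with glmQLFit and glmQLFTest, two-sided, with group as the only factor, over all 13706 genes kept. Each SE was obtained as the size of the log2 fold change over the root of F. The common biological coefficient of variation was 0.196, and 3 counts correspond to 0.132 to 0.261 CPM. Such limits cover counting error only. Levels per length use the counts, TMM scaling and the deposited gene length, and ratios within a library use its counts. Shared sequence was counted over stretches of 50 bases in the transcripts of GENCODE mouse release 21, where 31 of the 39 genes have the coordinates of the deposited table. The fitting script was checked on simulated data.

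The 39 genes, the pathway and marker lists, and the tests were chosen with earlier results of these data known. Counts over a list are therefore to be read beside the shares over all tested genes, and no list was tested. Those shares were 13.5% called lower and 14% higher, and 6.33% and 42.7% under library totals. Genes described in full were those called and those heading a role. From pathway lists, Jak1, Jak2, Ifng, Socs1 and up to 3 called genes of smallest p in each direction were named, and from each marker list the 2 most abundant and up to 2 called in each direction. Tap2, Gbp2, Gbp4, Gbp5, H2-Aa and the other uncalled genes of the 39 are also given. Psme4, Gm43302, Cxcl9, Cxcl10, Cxcl11, Ido1, Eomes, Cd3g, Lck, Gzmb and the further markers of recruited macrophages were named after their values were seen. A gene of the pathway lists is not reported here.

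Replicate numbers are shared by the groups. The numbers in the library names, which differ in part from the replicate numbers, are shared by the groups as well. Deviations from the group means correlated at 0.245, 0.182 and 0.155 between libraries of the same number and at -0.141 to -0.0262 between others. From the data alone, the numbers may thus pair the samples, which the labels do not state. The main fit and the permutation tests did not use the numbers, and a fit with the replicate number as a block was run as an alternative. Further fits used upper-quartile or median-of-ratios scaling, library totals, no filter, a CPM of over 1 in at least 3 libraries, DESeq2 1.42.0, limma-voom, or limma on log2(FPKM + 1) and log2(FPKM + 0.1) (limma 3.58.1), each library left out, and the legacy quasi-likelihood test of edgeR, which was chosen after seeing the data.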

Additional observations from a re-analysis of the deposited data

How the results depend on the processing

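Scaling was the choice on which most results turned. With library totals, 3 of the 39 genes were called higher and 10 lower, 5846 and 868 of all tested genes were called higher and lower, and the median log2 fold change of the 39 was -0.13. Under that scaling 13 uncalled genes turned from below to above 0, namely Gbp2 (0.44), Gbp9 (0.39), H2-D1 (0.22), Tap1 (0.035), Tap2 (0.0037), Tapbp (0.18), Psmb10 (0.077), Psme1 (0.14), Psme2 (0.26), Irf8 (0.44), Ciita (0.42), H2-Eb1 (0.43) and Cd74 (0.33). The median was -0.41 on log2(FPKM + 1), where the pseudocount shrinks the change of low genes. Uncalled values near 0 also changed sign with upper-quartile scaling (Gbp2 at 0.0078, H2-Eb1 at 0.0057), with no filter (Gbp2 at 0.020, Irf8 at 0.017, H2-Eb1 at 0.013) and on log2(FPKM + 0.1) (H2-Ab1 at -9.6e-05). Leaving out 1 library at a time gave 14 to 19 of the 39 called lower and 1 called higher each time, medians of -0.68 to -0.50, and 1339 to 1897 higher and 1334 to 1834 lower calls over all tested genes. Uncalled genes changed sign in those fits, with ranges of -0.25 to 0.23 for Gbp2, -0.070 to 0.58 for Gbp8, -0.41 to 0.22 for Psme2, -0.22 to 0.14 for Irf8, -0.56 to 0.33 for Ciita, -0.017 to 0.42 for H2-Aa, -0.14 to 0.27 for H2-Ab1, -0.24 to 0.15 for H2-Eb1 and -0.37 to 0.14 for Cd74. The replicate block gave 20 of the 39 called lower and 1 higher, adding Tgtp2 and Tap1 (edgeR adjusted p = 0.033 and 0.0416), and changed no other call among the 39. Median-of-ratios scaling, the CPM filter, DESeq2, limma-voom, both FPKM settings and the legacy test kept all 19 calls, and the cause of each change above was not tested. Low counts limit Gbp10, Gbp8, Gbp5, Ciita and Tgtp2 most.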
